A study of Mus musculus with 20 samples.

Results

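Cux1, Cux2, Rorb, Lamp5, Bcl11b, Fezf2, Foxp2, Tle4 and Tbr1 are genes by which the layers of the mouse neocortex are recognised. They were picked by symbol from the gene tables of frontal cortex and hippocampus, and all 9 were found among the 17148 genes that both tables list. Cux1, Cux2, Rorb and Lamp5 are taken here as the 4 upper-layer genes, and Bcl11b, Fezf2, Foxp2, Tle4 and Tbr1 as the 5 deep-layer genes. RNA was sequenced in 20 libraries that formed 4 groups of 5, namely Ncs1-/- frontal cortex, wild type frontal cortex, Ncs1-/- hippocampus and wild type hippocampus. All mice had the C57Bl6/J strain background, and Ncs1 encodes the calcium-binding protein neuronal calcium sensor 1. The sources used here do not say how the Ncs1 allele was made, nor the age and sex of the mice. They also do not say whether each library is a mouse of its own, and the p-values therefore refer to library-to-library spread, part of which may be technical.

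The neocortex is built of layers of neurons that differ in birth date, connections and transcription factors. Upper-layer neurons mostly connect cortical areas with each other or receive thalamic input, whereas deep-layer neurons send axons to the thalamus, brainstem and spinal cord. Several of the genes that mark these layers are also known in other forebrain neurons. Bcl11b is known in hippocampal granule and CA1 pyramidal neurons and in striatal projection neurons, and Foxp2 is known in the striatum. Tbr1 is a general gene of postmitotic glutamatergic neurons of the pallium, to which the hippocampus also belongs.

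The stretches before the gene starts show how unlike these genes are there, including those of genes that stood on the same side in the comparison of regions. They come from RefSeq on build GRCm38.p6, in which 8 of the 9 genes were matched. Cux2, Rorb and Lamp5 are shown as upper-layer genes that were all higher in cortex, and Fezf2 as a deep-layer gene that was lower there. Each is a run of 150 bases upstream of the RefSeq gene start and outside the exons of GENCODE M21, written 5′ to 3′ on the strand of the gene, with CpG dinucleotides in capitals. The Cux2 run is chr5:122049852-122050001 on the minus strand, the Rorb run chr19:19111197-19111346 on the minus strand, the Lamp5 run chr2:136052089-136052238 on the plus strand and the Fezf2 run chr14:12345960-12346109 on the minus strand. In GENCODE M21, where Cux2 and Fezf2 begin farther upstream, the runs of these genes lie inside the gene, between exons, whereas those of Rorb and Lamp5 lie before it.
Cux2: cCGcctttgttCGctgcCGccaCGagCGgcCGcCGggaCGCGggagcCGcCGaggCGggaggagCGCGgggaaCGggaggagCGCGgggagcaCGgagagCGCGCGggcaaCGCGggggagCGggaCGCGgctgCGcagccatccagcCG
Rorb: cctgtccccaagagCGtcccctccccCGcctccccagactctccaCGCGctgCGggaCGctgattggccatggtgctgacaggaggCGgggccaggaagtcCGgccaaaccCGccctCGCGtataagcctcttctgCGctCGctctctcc
Lamp5: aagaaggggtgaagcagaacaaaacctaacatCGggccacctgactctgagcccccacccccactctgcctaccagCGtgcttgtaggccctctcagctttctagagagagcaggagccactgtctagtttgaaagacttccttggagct
Fezf2: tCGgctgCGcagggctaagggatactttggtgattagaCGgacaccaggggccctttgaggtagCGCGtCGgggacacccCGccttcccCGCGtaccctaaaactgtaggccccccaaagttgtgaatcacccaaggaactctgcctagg
The Cux2 run held 28 CpG, the Rorb run 13, the Fezf2 run 9 and the Lamp5 run 2. These runs are not at like distances from the start. Those of Cux2 and Rorb lie at -150 to -1, that of Lamp5 at -250 to -101 and that of Fezf2 at -244 to -95. Over the window of 300 bases from 250 before to 50 after the start, Cux2 had 48 CpG and a GC content of 80.3%, whereas Lamp5 had 3 CpG and 50.7%. The median of 27025 mouse promoters was 7 CpG and 52.7% GC. By CpG count Cux2 stood at percentile 98.8 and Lamp5 at percentile 23.8 of all promoters, with Tle4, Cux1, Rorb, Fezf2, Bcl11b and Tbr1 at 28, 25, 20, 20, 9 and 7 CpG. The windows of Cux1 and Tbr1 lay wholly in annotated exons and that of Bcl11b for 238 of 300 bases. The Cux1 window, chr5:136565932-136566231, belongs to another RefSeq start and lies inside the gene as deposited, not at its deposited start.

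The same windows were searched on both strands for 6 short motifs, none of which contains another. The E-box CAGNTG was found in Cux2, Rorb, Lamp5 and Tbr1, which is 4 of 8 windows against 51.1% of all promoters. The forkhead motif GTAAACA was found in Cux1 alone among the 8, in a window away from the deposited Cux1 start, and in 3.55% of all promoters. The TATA box TATAAA was found in Bcl11b alone among the 8 and in 14.2% of all promoters. The T-box half-site GGTGTGA, the ROR half-site AGGTCA and the CUT motif ATCGAT were in 0 of the 8 windows and in 3.96%, 16.04% and 0.881% of all promoters.

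Total counts per library were 16.6 M to 34.6 M. Ncs1 itself averaged 259 ± 3.68 CPM in Ncs1-/- cortex and 368 ± 17.4 CPM in wild type cortex, and 300.3 ± 21.2 CPM in Ncs1-/- hippocampus and 441 ± 17.3 CPM in wild type hippocampus (SD, n = 5 each). CPM is the count of a gene scaled to the size of its library, with TMM factors over the 20 libraries. Markers of hippocampal granule and CA neurons, 9 genes in all, summed to 48.2 to 58.9 CPM in Ncs1-/- cortex and 43.5 to 69.9 CPM in wild type cortex. In hippocampus they summed to 672 to 820 CPM in Ncs1-/- and 585 to 936 CPM in wild type libraries. Markers of striatal projection neurons, 14 genes, were abundant in the frontal cortex libraries, with sums of 1287 to 2243 CPM in Ncs1-/- and 1247 to 1935 CPM in wild type. Their sums in hippocampus were 272 to 326 CPM in Ncs1-/- and 268 to 308 CPM in wild type. Choroid plexus markers exceeded 400 CPM in 3 hippocampus libraries, namely Ncs1-/- replicates 2 and 4 and wild type replicate 4. The names of the cortex libraries end in L002 and those of the hippocampus libraries in L001, so region and that label cannot be told apart.

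Frontal cortex was compared with hippocampus in each genotype to see which of the layer genes separate the regions. All 4 upper-layer genes were higher in cortex, by 2.71-fold to 5.11-fold. Of the deep-layer genes, Foxp2 and Tbr1 were higher in cortex, Bcl11b and Fezf2 were lower in cortex, and Tle4 differed by 1.12-fold in Ncs1-/- and 1.10-fold in wild type. All 9 genes passed an adjusted p of 0.05 in edgeR's quasi-likelihood test in Ncs1-/- mice and in wild type mice, 7 higher and 2 lower. Of all tested genes 38.8% passed in Ncs1-/-, 19.6% higher and 19.2% lower in cortex, and 39.5% passed in wild type, 20.7% higher and 18.8% lower. Positions are those of the deposited tables on build mm10. In bulk tissue, fewer cells that express a gene and less of its RNA per cell cannot be told apart.

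Among the upper-layer genes, Cux1 and Cux2 encode CUT homeodomain transcription factors of layers 2 to 4. Cux2 (chr5:121860216-122049852, minus strand) had 82.5, 90.4, 97.0, 76.0 and 105 CPM in the 5 Ncs1-/- cortex libraries and 91.7, 94.2, 92.4, 95.3 and 98.4 CPM in the 5 wild type cortex libraries. In hippocampus it had 15.4, 25.8, 21.5, 17.7 and 28.1 CPM in Ncs1-/- and 29.2, 21.4, 17.6, 19.2 and 23.3 CPM in wild type libraries. The lowest cortex library thus lay far above the highest hippocampus library, and the hippocampus libraries of either genotype were widely spread. The log2 fold change of Cux2, cortex over hippocampus, was 2.06 (SE 0.15) in Ncs1-/- and 2.11 (SE 0.11) in wild type.

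Cux1 (chr5:136248135-136567491, minus strand) also was higher in cortex. It had 114, 119, 127, 114 and 128 CPM in Ncs1-/- cortex and 117, 123, 108, 116 and 122 CPM in wild type cortex. Its hippocampus levels were 39.6, 46.6, 41.8, 42.5 and 52.2 CPM in Ncs1-/- and 44.4, 46.2, 40.5, 42.2 and 45.0 CPM in wild type. Every cortex library was above every hippocampus library, with a log2 fold change of 1.44 (SE 0.07) in Ncs1-/- and 1.44 (SE 0.05) in wild type. In GENCODE M21 the antisense transcript Gm16599 overlaps Cux1, and Gm3970 and Gm15637 overlap Cux2, and since the sources used here state no strand setting, the counts of Cux1 and Cux2 could include reads of these transcripts.

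Rorb (chr19:18930609-19111197, minus strand) encodes a nuclear receptor of layer 4 neurons. Its levels were 79.4, 87.3, 93.2, 76.1 and 96.9 CPM in Ncs1-/- cortex and 80.8, 97.5, 84.1, 74.7 and 82.6 CPM in wild type cortex. In hippocampus they were 29.7, 28.9, 32.2, 27.4 and 30.6 CPM in Ncs1-/- and 32.5, 35.4, 26.4, 26.5 and 28.0 CPM in wild type. The regions did not overlap, and Rorb differed by a log2 fold change of 1.55 (SE 0.07) in Ncs1-/- and 1.51 (SE 0.09) in wild type.

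Lamp5 (chr2:136052339-136069918, plus strand) encodes a neuronal membrane protein of the LAMP family, found in upper-layer neurons and in a class of interneurons. It had 169, 157, 166, 151 and 162 CPM in Ncs1-/- cortex and 193, 209.8, 214, 175 and 137 CPM in wild type cortex. Hippocampus libraries had 32.5, 33.8, 34.5, 31.5 and 31.6 CPM in Ncs1-/- and 56.3, 30.6, 34.7, 30.2 and 32.4 CPM in wild type. Wild type libraries were widely spread in cortex, where replicate 5 was lowest, and in hippocampus replicate 1 stood above all other hippocampus libraries. Lamp5 had the greatest difference of the 4 upper-layer genes, with a log2 fold change of 2.30 (SE 0.05) in Ncs1-/- and 2.35 (SE 0.17) in wild type. The edgeR adjusted p of the upper-layer genes lay between 8.45e-12 and 3.00e-07 over both genotypes.

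**Figure D1:**
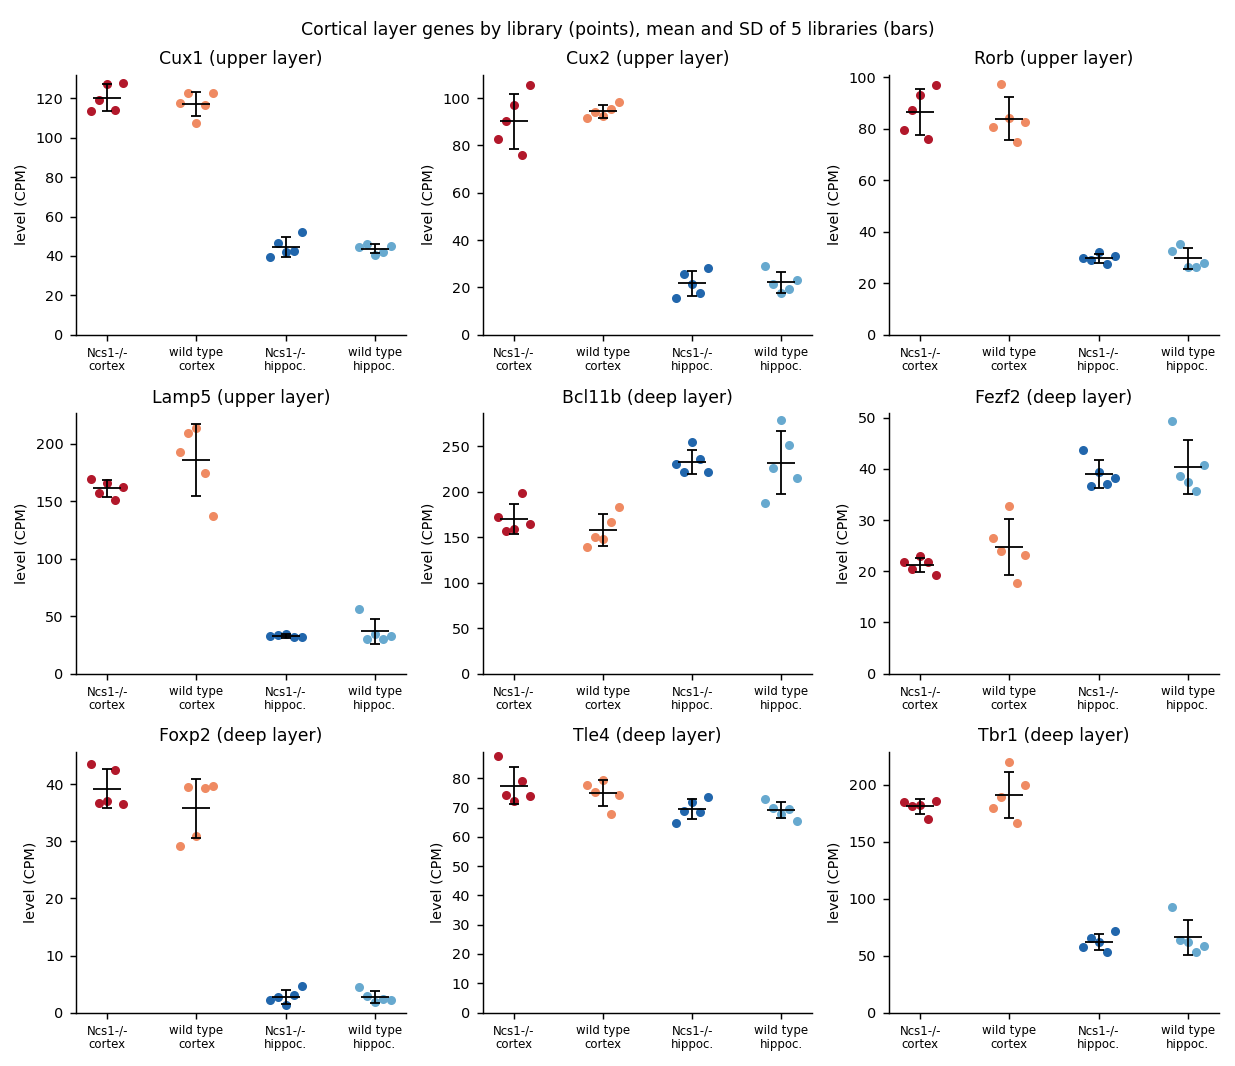
Level in CPM (vertical axes, starting at 0) of each of the 9 layer genes in each library (points) of Ncs1-/- cortex, wild type cortex, Ncs1-/- hippocampus and wild type hippocampus, with the mean and SD of 5 libraries (bars). Cux1, Cux2, Rorb, Lamp5, Foxp2 and Tbr1 were high in cortex, Bcl11b and Fezf2 were high in hippocampus, and Tle4 overlapped between regions.

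The deep-layer genes did not share a direction. Foxp2 (chr6:14901349-15441978, plus strand) encodes a forkhead transcription factor of layer 6 and of the striatum. It had 43.5, 36.8, 37.1, 42.5 and 36.5 CPM in Ncs1-/- cortex and 29.2, 39.6, 31.0, 39.4 and 39.8 CPM in wild type cortex. Its hippocampus levels were low, at 2.23, 2.64, 1.38, 2.99 and 4.70 CPM in Ncs1-/- and 4.40, 2.85, 1.87, 2.36 and 2.12 CPM in wild type, which rests on 33 to 164 counts per library. The log2 fold change was 3.79 (SE 0.21) in Ncs1-/- and 3.74 (SE 0.18) in wild type, or 13.9-fold and 13.4-fold. The 14 striatal markers also were higher in cortex in each genotype, all 14 of them called, with a median log2 fold change of 3.30 in Ncs1-/- and 3.22 in wild type, and their part in the Foxp2 difference was not tested.

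Tbr1 (chr2:61804453-61814114, plus strand) encodes a T-box transcription factor of layer 6 neurons. Cortex libraries had 185, 181, 182, 170.2 and 186 CPM in Ncs1-/- and 179, 189, 219.9, 167 and 199 CPM in wild type. Hippocampus libraries had 57.9, 65.3, 62.0, 52.8 and 71.8 CPM in Ncs1-/- and 92.7, 63.7, 61.9, 52.9 and 58.7 CPM in wild type. Wild type hippocampus replicate 1 was again the highest of its region, yet well under the lowest cortex library. Tbr1 had a log2 fold change of 1.55 in each genotype (SE 0.07 in Ncs1-/- and 0.13 in wild type), close in size to those of Rorb and Cux1.

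Bcl11b (chr12:107910403-108003415, minus strand) encodes a zinc finger transcription factor of layer 5 neurons that project below the cortex. Its cortex levels were 172, 157, 159, 198 and 164 CPM in Ncs1-/- and 139, 150.5, 148, 167 and 184 CPM in wild type. Hippocampus levels were 230.0, 221, 254, 236 and 222 CPM in Ncs1-/- and 188, 226, 279, 251 and 215 CPM in wild type. The regions did not overlap within a genotype, although wild type hippocampus replicate 1 lay only just above the highest wild type cortex library. The log2 fold change of Bcl11b was -0.45 (SE 0.07) in Ncs1-/- and -0.54 (SE 0.10) in wild type, with edgeR adjusted p of 0.000116 and 0.000833.

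Fezf2 (chr14:12341892-12345866, minus strand), a zinc finger transcription factor that specifies the same layer 5 neurons, also was lower in cortex. It had 21.8, 20.4, 22.9, 21.8 and 19.3 CPM in Ncs1-/- cortex and 26.5, 24.0, 32.7, 17.7 and 23.1 CPM in wild type cortex. In hippocampus it had 43.6, 36.7, 39.4, 37.2 and 38.2 CPM in Ncs1-/- and 49.3, 38.7, 37.5, 35.8 and 40.8 CPM in wild type. The highest cortex library, wild type replicate 3, stayed below the lowest hippocampus library. Its log2 fold change was -0.87 (SE 0.07) in Ncs1-/- and -0.68 (SE 0.14) in wild type, with edgeR adjusted p of 1.96e-07 and 0.00142.

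Tle4 (chr19:14448072-14598184, minus strand), a Groucho-family corepressor of layer 6 neurons, had nearly the same level in both regions. It had 87.7, 74.2, 72.2, 79.2 and 73.9 CPM in Ncs1-/- cortex and 77.8, 75.2, 79.3, 67.8 and 74.3 CPM in wild type cortex. In hippocampus it had 64.7, 68.8, 72.0, 68.6 and 73.7 CPM in Ncs1-/- and 72.9, 69.7, 67.9, 69.4 and 65.6 CPM in wild type. Tle4 was the gene whose ranges overlapped between regions in both genotypes, and the other 8 genes did not overlap in either, where 29.6% of all genes did not overlap in Ncs1-/- and 29.0% in wild type. Its log2 fold change was 0.16 (95% interval 0.03 to 0.29) in Ncs1-/- and 0.13 (95% interval 0.03 to 0.24) in wild type. The edgeR adjusted p was 0.0471 in Ncs1-/- and 0.0459 in wild type, and the call was lost in 11 of 17 and 11 of 16 alternatives. The alternatives gave adjusted p of 0.0249 to 0.158 and 0.0114 to 0.122. Total-count scaling, no filter on low counts and leaving out the choroid-rich hippocampus libraries, in wild type replicate 4, were among those that lost it in both genotypes.

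**Figure D2:**
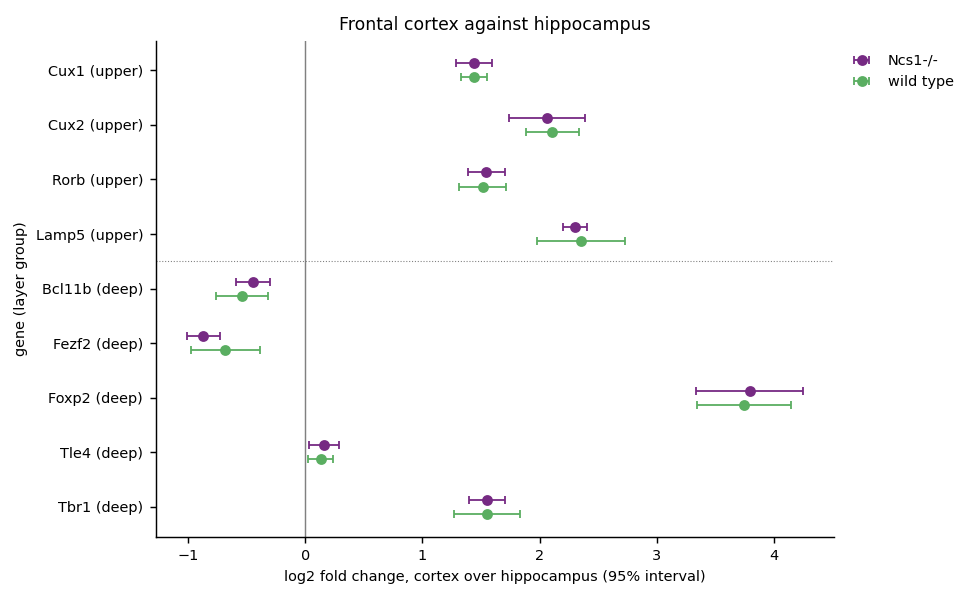
Log2 fold change, cortex over hippocampus (horizontal axis), of each layer gene with its 95% interval, in Ncs1-/- and wild type mice. The 4 upper-layer genes lie between 1.44 and 2.35, whereas the deep-layer genes run from -0.87 for Fezf2 to 3.79 for Foxp2 in Ncs1-/- mice.

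Upper-layer genes were set against deep-layer genes within each library, as the mean log2 CPM of the 4 upper-layer genes minus that of the 5 deep-layer genes. The difference was 0.47, 0.67, 0.73, 0.40 and 0.80 in Ncs1-/- cortex and 0.73, 0.77, 0.59, 0.72 and 0.51 in wild type cortex. In hippocampus it was -0.48, -0.27, -0.21, -0.48 and -0.42 in Ncs1-/- and -0.32, -0.34, -0.44, -0.42 and -0.26 in wild type. Every cortex library was thus above every hippocampus library. The zero point of this difference depends on the lengths of the genes, and only differences between groups are read from it. The means were 0.61 ± 0.17 in Ncs1-/- cortex, 0.66 ± 0.11 in wild type cortex, -0.37 ± 0.12 in Ncs1-/- hippocampus and -0.36 ± 0.07 in wild type hippocampus (SD, n = 5 each). The genotypes differed by -0.05 in cortex and -0.02 in hippocampus, Ncs1-/- minus wild type, which is less than the SD between libraries. The cortex means exceeded those of hippocampus by 0.99 in Ncs1-/- and 1.02 in wild type. These differences were not tested, since the genes were grouped with their levels known. The lowest cortex value of each genotype, 0.40 and 0.51, came from the library with its highest striatal marker sum (2243 and 1935 CPM). Wild type replicate 3, with the lowest sum of its genotype (1247 CPM), went the other way, at 0.59. Bcl11b and Foxp2 are also known in striatal neurons, and the part of striatal RNA in these values was not tested.

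**Figure D3:**
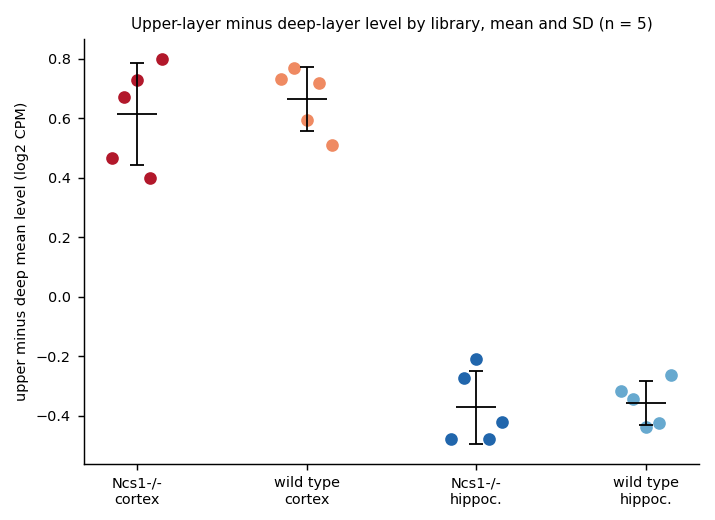
Mean log2 CPM of the 4 upper-layer genes minus that of the 5 deep-layer genes (vertical axis) in each library (points), with mean and SD of 5 libraries (bars). Cortex libraries lie between 0.40 and 0.80 and hippocampus libraries between -0.48 and -0.21, with both genotypes at like values in each region.

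Levels between genes were compared per kilobase of exon, with exon lengths from GENCODE M21. In cortex the order was the same at the top in both genotypes, led by Lamp5 at 55.0 ± 2.45 CPM per kb in Ncs1-/- and 63.3 ± 10.7 CPM per kb in wild type (SD, n = 5 each). Tbr1 followed at 33.0 ± 1.13 CPM per kb in Ncs1-/- and 34.8 ± 3.70 CPM per kb in wild type, then Bcl11b at 20.95 ± 2.08 and 19.4 ± 2.19, and Tle4 at 13.6 ± 1.11 and 13.1 ± 0.775. The ranges of these neighbours did not overlap. Cux2, Rorb and Fezf2 had 6.97 to 8.95 CPM per kb in Ncs1-/- and 7.58 to 9.36 CPM per kb in wild type, with overlapping ranges. Cux1 had 6.01 ± 0.344 CPM per kb in Ncs1-/- and 5.86 ± 0.308 CPM per kb in wild type, and its range overlapped that of Fezf2 in both genotypes. Foxp2 was the lowest, at 2.40 ± 0.210 CPM per kb in Ncs1-/- and 2.19 ± 0.319 CPM per kb in wild type.

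In hippocampus the order was another one. Bcl11b led with 28.7 ± 1.67 CPM per kb in Ncs1-/- and 28.6 ± 4.29 CPM per kb in wild type (SD, n = 5 each). Fezf2, Tle4, Tbr1 and Lamp5 formed a middle group of 11.2 to 12.8 CPM per kb in Ncs1-/- and 12.03 to 13.3 CPM per kb in wild type, whose ranges overlapped from one to the next. Rorb, Cux1 and Cux2 had 2.15 to 2.69 CPM per kb in Ncs1-/- and 2.18 to 2.69 CPM per kb in wild type, also with overlapping ranges. Foxp2 was last at 0.171 ± 0.0749 CPM per kb in Ncs1-/- and 0.167 ± 0.0617 CPM per kb in wild type. Of the 9 genes, the upper-layer transcription factors and Foxp2 thus were the lowest per length in hippocampus.

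Ncs1-/- frontal cortex was then compared with wild type frontal cortex. Of the 9 layer genes 0 were called in edgeR's quasi-likelihood test, where 0.027% of all tested genes were called. The gene with the smallest p was Lamp5, at 161 ± 7.17 CPM in Ncs1-/- and 186 ± 31.3 CPM in wild type cortex (SD, n = 5 each). Its log2 fold change was -0.20 (SE 0.09), with an unadjusted p of 0.0485 and an adjusted p of 0.335 in edgeR. Lamp5 was the 1 layer gene of 9 with an unadjusted p under 0.05, where 14.8% of all tested genes had one, and DESeq2 called 0 of the 9 but gave Fezf2 no adjusted p. Lamp5 was not called in the main fit, and 1 of 17 alternatives called it. When wild type cortex replicate 5 was left out, which had the lowest Lamp5 of all cortex libraries, the log2 fold change was -0.30 with an edgeR adjusted p of 0.0263, and 563 genes were called in all.

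Fezf2 had 21.2 ± 1.41 CPM in Ncs1-/- and 24.8 ± 5.46 CPM in wild type cortex (SD, n = 5 each). Its log2 fold change was -0.23 (SE 0.12), and 4 of 5 wild type libraries lay above every Ncs1-/- library, whereas replicate 4 lay below them all. Leaving out 1 library gave Fezf2 values of -0.33 to -0.10. Foxp2 and Bcl11b had log2 fold changes of 0.13 (SE 0.09) and 0.11 (SE 0.08). Cux1, Rorb and Tle4 lay between 0.04 and 0.05 and Cux2 and Tbr1 between -0.08 and -0.06, with SE of 0.05 to 0.08. These 5 values kept their signs with any 1 library left out, but the smallest of them was then 0.000807, for Tle4. For all 9 genes the libraries of the genotypes overlapped, where 2.11% of all genes did not overlap. The 95% intervals of Cux1, Cux2, Rorb, Tle4 and Tbr1 lay between -0.22 and 0.21.

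Markers of other cells were read in the same cortex groups. All 14 striatal markers were higher in Ncs1-/- cortex, with a median log2 fold change of 0.18, 1 at an unadjusted p under 0.05 and 0 called in edgeR. All 5 markers of excitatory neurons were lower, with a median of -0.15, 3 at an unadjusted p under 0.05 and 0 called. The 4 astrocyte markers were also lower, with a median of -0.13, while the 4 thalamic markers (median 0.13) and the 4 choroid plexus markers tested (median 0.88) were all higher. Summed choroid plexus markers had 250.4 CPM in Ncs1-/- replicate 1 and 10.2 to 13.5 CPM in the other Ncs1-/- libraries. Their sums in wild type cortex were 5.48 to 14.3 CPM, so the higher sum came from 1 library. Oligodendrocyte markers were higher for 3 of 4 and microglia markers for 1 of 4. At an unadjusted p under 0.05 in edgeR were 0 astrocyte, 0 thalamic, 2 choroid plexus, 0 oligodendrocyte and 1 microglia markers and 3 of 10 markers of interneurons. Of these lists 0 members were called in edgeR. Among all tested genes, 14.8% had an unadjusted p under 0.05. The part of these lists in the values of the layer genes was not tested. Excitatory markers summed to 5628 to 6204 CPM in Ncs1-/- and 5927 to 6908 CPM in wild type cortex. With the striatal level of each library as a covariate, 0 of the 9 layer genes were called in edgeR. The log2 fold change was then 0.03 for Bcl11b, 0.04 for Foxp2 and -0.13 for Lamp5 (edgeR adjusted p of 0.866, 0.825 and 0.608). These 3 genes had the strongest relation to that level in the same libraries, so smaller values were likely beforehand. Values of the other layer genes with this covariate are not reported here, and no cause is read from it.

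In hippocampus, 0 of the 9 layer genes were called between Ncs1-/- and wild type in edgeR, where 0.0266% of all tested genes were called. At an unadjusted p under 0.05 there were also 0, where 3.78% of all tested genes were, and DESeq2 called 0. The log2 fold changes ran from -0.16 (SE 0.15) for Lamp5 to 0.06 (SE 0.31) for Foxp2. Lamp5 averaged 32.8 ± 1.33 CPM in Ncs1-/- and 36.8 ± 11.0 CPM in wild type hippocampus (SD, n = 5 each). With wild type replicate 1 left out, its log2 fold change was 0.04. That library had the highest level of Cux2, Lamp5, Fezf2, Foxp2, Tle4 and Tbr1 and the lowest level of Bcl11b among the wild type hippocampus libraries. It also had the lowest sum of hippocampal markers, 585 CPM, against 728 to 936 CPM in the other wild type libraries, and the part of that sum in its levels was not tested. Among the Ncs1-/- hippocampus libraries, replicate 5 had the highest Cux1, Cux2, Foxp2, Tle4 and Tbr1 and the lowest hippocampal marker sum, 672 CPM. The genotypes overlapped for all 9 genes, where 0.438% of all genes did not overlap.

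The genotype effects of the regions were compared by their interaction, the Ncs1-/- effect in cortex minus that in hippocampus. It was called for 0 of the 9 genes and for 0.0% of all tested genes in edgeR. At an unadjusted p under 0.05 there were 0 of the 9 genes and 1.4% of all genes, 214 in number, and DESeq2 called 0 of the 9 and 1 gene in all. The values ran from -0.18 (95% interval -0.51 to 0.16) for Fezf2 to 0.10 (95% interval -0.16 to 0.37) for Bcl11b. The widest interval was that of Foxp2, from -0.58 to 0.70.

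**Figure D4:**
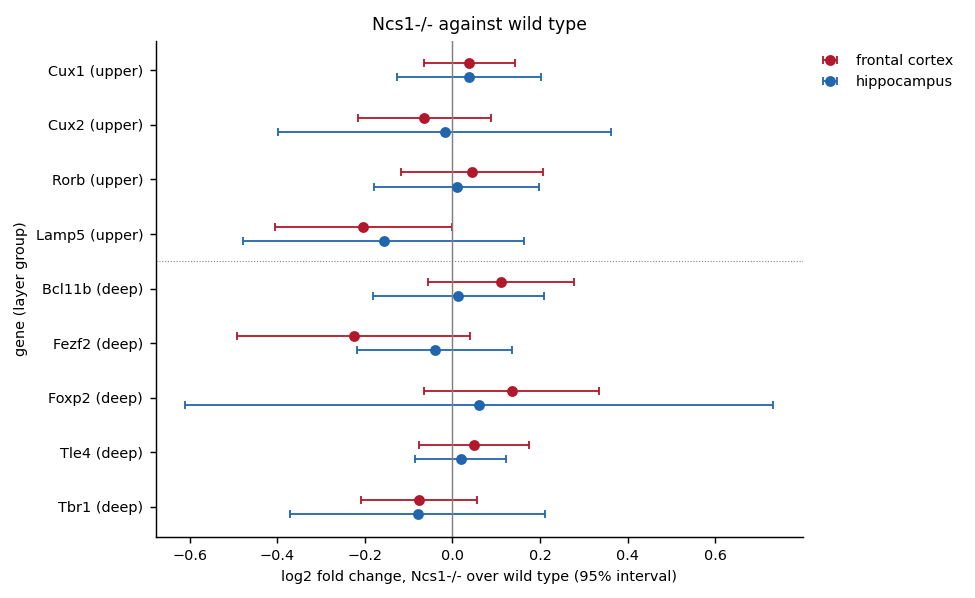
Log2 fold change, Ncs1-/- over wild type (horizontal axis), of each layer gene with its 95% interval, in frontal cortex and hippocampus. The intervals cover 0 for all genes in both regions except Lamp5 in cortex, whose upper end lies at -0.00156 and whose adjusted p was 0.335.

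Bcl11b, Foxp2 and Tle4 are also known in striatal neurons. Each layer gene was therefore set against the mean log2 CPM of the 14 striatal markers over the 10 cortex libraries. Bcl11b and Foxp2 were high where the striatal markers were high, whereas Tle4 showed little relation to them (r 0.13). Ncs1-/- replicate 4 had the highest striatal sum, 2243 CPM, with the highest Bcl11b and the lowest Cux2, Rorb, Lamp5 and Tbr1 of its group. Wild type replicate 5 had the highest striatal sum of its group, 1935 CPM, with the highest Bcl11b and Foxp2 and the lowest Lamp5, but also the highest Cux2. Wild type replicates 1 and 3 had low striatal sums, 1297 and 1247 CPM, and the lowest Foxp2 levels, 29.2 and 31.0 CPM. Ncs1-/- replicate 2 went against this order, with a striatal sum of 1287 CPM and 36.8 CPM of Foxp2.

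Pearson's r was 0.88 for Bcl11b and 0.87 for Foxp2, with Spearman's rho of 0.95 and 0.82. The two-sided permutation p of r was 0.00082 for Bcl11b and 0.00065 for Foxp2, adjusted to 0.00369 each over the 9 genes, and the adjusted permutation p of rho was 0.00081 and 0.0267. For Lamp5 r was -0.60 with an adjusted permutation p of 0.207. For the other 6 genes r lay between -0.50 and 0.21 with adjusted permutation p of 0.310 or more. Tle4, 1 of these 6, had r of 0.13 and rho of 0.04, with adjusted permutation p of 0.728 and 0.973. With each genotype centred on its mean, r was 0.86 for Bcl11b and 0.85 for Foxp2, with an adjusted permutation p of 0.0128 each, whereas the adjusted permutation p of rho was 0.00378 for Bcl11b and 0.0900 for Foxp2. Without wild type replicates 1 and 3, the libraries farthest from the median, r was 0.81 and 0.76 with an adjusted permutation p of 0.111 each. The adjusted permutation p of rho was then 0.0191 for Bcl11b (rho 0.93) and 0.372 for Foxp2 (rho 0.67), so the Bcl11b relation still passed by rho and the Foxp2 relation passed by neither measure. Leaving out 1 library, the adjusted permutation p of rho for Foxp2 was 0.00540 to 0.112, and it missed 0.05 without Ncs1-/- replicate 1 or 4 or wild type replicate 1, 3 or 5. Without Ncs1-/- replicate 2, Lamp5 passed as well, with r of -0.77 and an adjusted permutation p of 0.0453. The points share library, depth and scaling, and the striatal list holds none of the 9 genes.

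**Figure D5:**
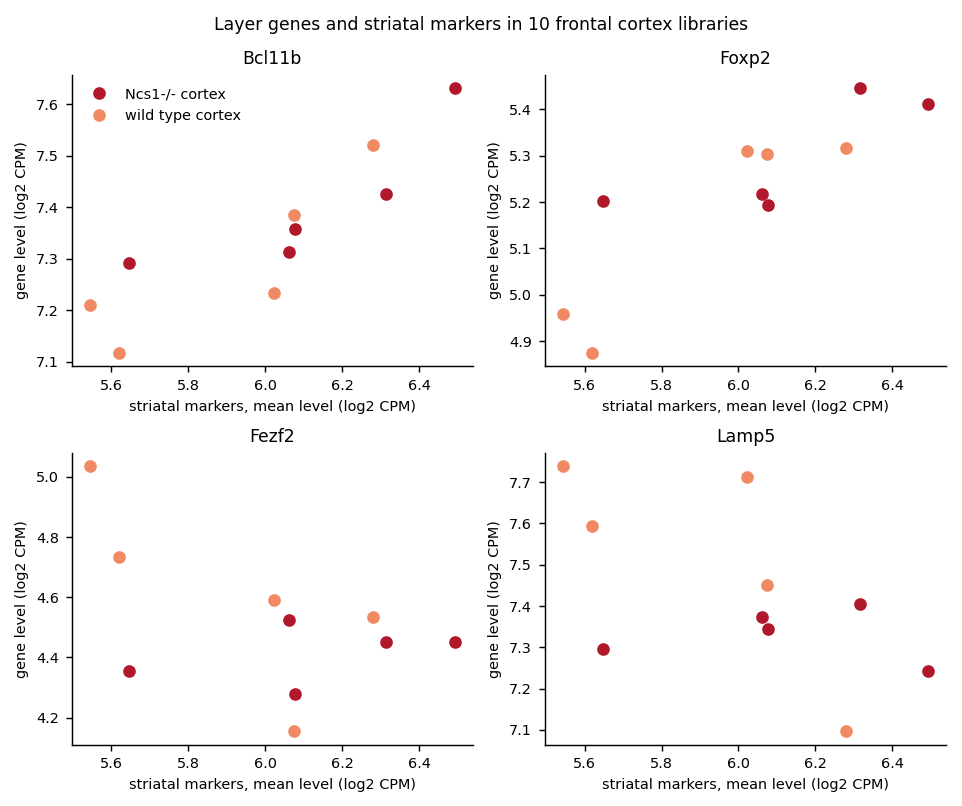
Level of Bcl11b, Foxp2, Fezf2 and Lamp5 (vertical axes, log2 CPM) against the mean level of 14 striatal markers (horizontal axes, log2 CPM) in the 5 Ncs1-/- and 5 wild type cortex libraries (points). Bcl11b and Foxp2 climb with the striatal markers (r 0.88 and 0.87), whereas Lamp5 runs the other way (r -0.60, not past the adjusted threshold).

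Other genes known for the same layers were compared between regions in the same fits. Among all tested genes, 19.6% were called higher and 19.2% lower in cortex in Ncs1-/-, and 20.7% and 18.8% in wild type. Of 12 further upper-layer genes, 7 were higher in cortex, 3 lower and 2 not called in each genotype, with a median log2 fold change of 0.78 in Ncs1-/- and 0.92 in wild type, where the median of all genes was -0.01 in each. Otof, a calcium sensor of exocytosis, was at 33.7 ± 2.97 CPM in Ncs1-/- cortex and 6.28 ± 0.675 CPM in Ncs1-/- hippocampus (SD, n = 5 each). Pou3f2, a POU-domain factor of upper-layer neurons, differed by a log2 fold change of 1.80 (SE 0.07) in Ncs1-/-, and the upper-layer genes Plcxd2 and Rasgrf2, a Ras exchange factor, by 1.76 (SE 0.10) and 1.13 (SE 0.06) in wild type. Mdga1, which encodes a synaptic cell-surface protein, went the other way, at -1.68 (SE 0.06) in Ncs1-/- and -1.64 (SE 0.14) in wild type. Lhx2, a LIM homeodomain factor, was lower in Ncs1-/- cortex at -0.48 (SE 0.06), and Scnn1a, a sodium channel subunit used to mark layer 4, was lower in wild type cortex at -0.71 (SE 0.17).

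Further layer 5 genes went in both directions. Of 10 tested, 4 were higher in cortex, 5 lower and 1 not called in each genotype, with a median log2 fold change of -0.17 in Ncs1-/- and -0.21 in wild type. Among all tested genes, 19.6% were called higher and 19.2% lower in Ncs1-/-, and 20.7% and 18.8% in wild type. Pcp4, a calmodulin-binding protein, was at 174 ± 15.9 CPM in Ncs1-/- cortex and 58.0 ± 5.60 CPM in Ncs1-/- hippocampus, and at 175 ± 14.0 CPM in wild type cortex and 54.4 ± 4.46 CPM in wild type hippocampus (SD, n = 5 each). Deptor, an inhibitor of mTOR, was higher in cortex by 1.25 (SE 0.13) in Ncs1-/- and 1.27 (SE 0.10) in wild type on the log2 scale. Crym, a thyroid hormone-binding protein, was lower in cortex by more than any other of the list, at 40.8 ± 4.37 CPM in Ncs1-/- cortex and 162 ± 27.1 CPM in Ncs1-/- hippocampus (SD, n = 5 each). The transcription factor gene Bcl6 had -0.72 (SE 0.07) in Ncs1-/-, and Etv1 had -0.63 (SE 0.08) in wild type.

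Of 12 further layer 6 genes, 11 were tested. In Ncs1-/- 7 were higher in cortex, 3 lower and 1 not called, and in wild type 7 were higher, 2 lower and 2 not called. Among all tested genes, 19.6% were called higher and 19.2% lower in Ncs1-/-, and 20.7% and 18.8% in wild type. Their median log2 fold change was 0.72 in Ncs1-/- and 0.87 in wild type. Syt6, a synaptotagmin, was at 44.8 ± 5.34 CPM in Ncs1-/- cortex and 9.77 ± 0.855 CPM in Ncs1-/- hippocampus, and at 41.6 ± 6.75 CPM in wild type cortex and 9.32 ± 0.948 CPM in wild type hippocampus (SD, n = 5 each). Sox5, an SRY-box factor of deep-layer neurons, had a log2 fold change of 0.54 (SE 0.05) in Ncs1-/-, and the layer 6 gene Rprm one of 0.92 (SE 0.08) in wild type. Hs3st4, a heparan sulfotransferase, and Zfpm2, a zinc finger cofactor, were lower in cortex, at -0.94 (SE 0.08) and -0.92 (SE 0.09) in Ncs1-/- and -0.84 (SE 0.07) and -0.92 (SE 0.11) in wild type.

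Relatives of the 9 genes within their protein families were also read, 14 of 18 being tested between regions. In Ncs1-/- 3 were higher in cortex, 4 lower and 7 not called, and in wild type 3 were higher, 5 lower and 6 not called. Among all tested genes, 19.6% were called higher and 19.2% lower in Ncs1-/-, and 20.7% and 18.8% in wild type. The number of relatives higher in cortex, 3 of 14, was thus near the share of all genes. Rora, the relative of Rorb, was at 187 ± 21.2 CPM in Ncs1-/- cortex and 74.7 ± 10.4 CPM in Ncs1-/- hippocampus, and at 171 ± 11.2 CPM in wild type cortex and 72.4 ± 4.34 CPM in wild type hippocampus (SD, n = 5 each). Foxp1, the relative of Foxp2 that striatal neurons also express, was higher in cortex by 0.65 (SE 0.06) in Ncs1-/- and 0.60 (SE 0.05) in wild type on the log2 scale. Bcl11a, the relative of Bcl11b, was lower in cortex, as Bcl11b was, at -0.26 (SE 0.04) in Ncs1-/- and -0.26 (SE 0.05) in wild type. Tle1, the relative of Tle4, was lower in cortex at -0.50 (SE 0.06) in Ncs1-/- and -0.51 (SE 0.08) in wild type.

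Between genotypes, 0 members of these 4 lists were called in edgeR in either region, nor in the interaction. In cortex 2 further upper-layer genes, 0 layer 5 genes, 2 layer 6 genes and 2 relatives had an unadjusted p under 0.05, which is 2 of 12, 0 of 10, 2 of 11 and 2 of 14 against 14.8% of all tested genes, and in hippocampus and the interaction 0 of any list did. In cortex the members with the smallest p among the layer genes of these lists were Lhx2 at a log2 fold change of -0.21 (SE 0.08), the retinol carrier gene Rbp4 at -0.16 (SE 0.09) and Rprm at -0.15 (SE 0.05), with edgeR adjusted p of 0.239 to 0.403. In hippocampus they were the calcium buffer gene Calb1 at -0.14 (SE 0.07), Pcp4 at 0.10 (SE 0.07) and the nuclear receptor gene Nr4a2 at 0.14 (SE 0.16). Among the relatives it was the lysosomal gene Cd68 at -0.18 (SE 0.10). Each had an edgeR adjusted p of 0.991. For the interaction the layer genes with the smallest p were Whrn at -0.34 (SE 0.20), Bcl6 at 0.21 (SE 0.15) and Rprm at -0.18 (SE 0.12). Among the relatives it was Cd68 at 0.23 (SE 0.14).

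The genes whose pattern was most like that of a layer gene were sought among 9885 genes averaging 10 CPM or more, by the root mean square difference of log2 CPM over the 20 libraries after each gene was centred on its own mean. Most of that pattern is the difference between regions. Rorb and Cux1 were close to each other, at 0.13, where Cux1 was the second nearest gene to Rorb after Arhgap32 at 0.10. Nearest to Cux1 were Gnb4 and Kcnv1, each at 0.12, and nearest to Cux2 were Rgs6 and Rims3, each at 0.18. Rgs6 was also nearest to Lamp5, at 0.17, followed by Mef2c at 0.18. Tbr1 was closer to the upper-layer genes than to the other deep-layer genes. Its difference to Rorb was 0.17 and to Cux1 0.19, against 1.06 to Bcl11b, 1.19 to Fezf2, 1.17 to Foxp2 and 0.73 to Tle4. Nearest of all genes to Tbr1 was Garnl3 at 0.06, followed by Stx1a at 0.12.

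Bcl11b and Fezf2, both lower in cortex, differed from each other by 0.33, which put Bcl11b at rank 971 of 9885 in likeness to Fezf2 and Fezf2 at rank 5816 in likeness to Bcl11b. Nearest to Bcl11b were Cacnb2 and Abi1, each at 0.10, and nearest to Fezf2 were Mmd at 0.16 and Brd9 at 0.17. Foxp2 stood apart from the other 8 layer genes, the closest of which was Lamp5 at 0.84. Nearest to it were the dopamine receptor gene Drd1, one of the 14 striatal markers, at 0.35 and Rasgef1c at 0.42. Tle4, nearly level over the libraries, was nearest to Macrod2 and Tmx4, each at 0.06.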

How the data were processed

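Each of the 20 libraries was given its group and replicate number by its sample title. The tables, 1 for each region, hold what the authors deposited as unscaled expected counts. The build mm10 and the tools STAR 2.7.3a and Partek are named, per the submitters' processing notes. Annotation, strand setting and filters are, in the sources used here, not given.

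After rounding of the expected counts, models were fitted with edgeR 4.0.16 (R 4.3.3) using filterByExpr, TMM scaling and the quasi-likelihood test, adjusted by Benjamini-Hochberg at 0.05 over 14823 genes in cortex, 15042 in hippocampus, 15032 and 14849 between regions in Ncs1-/- and wild type, and 15310 in the interaction. SE is the log2 fold change over the root of its F value. Log2 CPM used a prior count of 2. Permutation tests drew 100000 resamples. The code was tested on simulated counts. Counts cover sampling of reads only.

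The 9 genes and the lists were chosen with earlier results of these data known. The text names all 9 genes and, of each list of layer genes or relatives, the 2 with the smallest p per direction among those called, otherwise the 1 with the smallest p, and the 2 genes most like each of the 9. A gene that this rule picked is not reported here. Alternatives were RLE and total-count scaling, DESeq2 1.42.0, no filter, a replicate block, all libraries in 1 fit, a striatal covariate, each library left out, and, chosen after the data were seen, the choroid-rich hippocampus libraries left out. Promoter sequences and exon lengths came from RefSeq GRCm38.p6 and GENCODE M21.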

Additional observations from a re-analysis of the deposited data

Results flagged for a closer look

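Of 52 groups of 5 libraries examined, 6 held a library far from the others, judged by its gap to the nearest library over the range of the group, against a limit of 0.71 that chance passes in about 1 of 20 groups. Lamp5 in wild type hippocampus had a ratio of 0.826, since replicate 1 had 56.3 CPM and the others 30.2 to 34.7 CPM. Tbr1 in wild type hippocampus had a ratio of 0.728, again from replicate 1, at 92.7 CPM against 52.9 to 63.7 CPM. Tbr1 in Ncs1-/- cortex had a ratio of 0.712, with replicate 4 at 170.2 CPM and the others at 181 to 186 CPM. The summed choroid plexus markers had a ratio of 0.986 in Ncs1-/- cortex (replicate 1, 250.4 CPM against 10.2 to 13.5 CPM), 0.896 in Ncs1-/- hippocampus (replicate 2, 3563 CPM against 34.9 to 402 CPM) and 0.99 in wild type hippocampus (replicate 4, 2295 CPM against 28.8 to 52.0 CPM).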

How the results depend on the processing

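Between regions, Cux1, Cux2, Rorb, Lamp5, Bcl11b, Fezf2, Foxp2 and Tbr1 kept direction and call in each of 17 alternatives in Ncs1-/- and 16 in wild type, where leaving out the choroid-rich library is leaving out replicate 4, and Tle4 kept its direction. In cortex, DESeq2 called 169 genes between genotypes and the fit of all 20 libraries 7, and leaving out 1 library gave 4 to 563 genes and 0 to 1 layer genes, the highest values without wild type replicate 5. In hippocampus 0 genes were called without the choroid-rich libraries, which leaves fewer samples. For the interaction DESeq2 called 1 gene, and leaving out 1 library gave 0 to 1, the 1 being without Ncs1-/- cortex replicate 5. Without the 2 libraries farthest from the median, 0 layer genes passed in the striatal relation by r, although Bcl11b passed by rho, and r was -0.38 for Cux1 and 0.24 for Fezf2. Signs turned for Rorb in hippocampus with no filter (-0.000626), and in the interaction for Cux1 with total-count scaling (-0.00241), Cux2 and Lamp5 without the choroid-rich libraries (0.0114 and 0.0217) and Tbr1 with the replicate block (-0.00113). The cause was not tested. Leaving out 1 library, the log2 fold changes in cortex ran from 0.00776 to 0.0582 for Cux1, -0.125 to -0.00877 for Cux2, 0.00249 to 0.105 for Rorb, -0.296 to -0.149 for Lamp5, 0.0482 to 0.171 for Bcl11b, -0.325 to -0.102 for Fezf2, 0.0723 to 0.174 for Foxp2, 0.000807 to 0.0738 for Tle4 and -0.122 to -0.0205 for Tbr1. Those in hippocampus ran from -0.0282 to 0.0699 for Cux1, -0.135 to 0.0972 for Cux2, -0.0328 to 0.0729 for Rorb, -0.223 to 0.0429 for Lamp5, -0.0551 to 0.0857 for Bcl11b, -0.0930 to 0.0377 for Fezf2, -0.221 to 0.295 for Foxp2, -0.00542 to 0.0355 for Tle4 and -0.149 to 0.0711 for Tbr1. The interaction ran from -0.0338 to 0.0728 for Cux1, -0.157 to 0.0786 for Cux2, -0.0267 to 0.102 for Rorb, -0.242 to 0.0264 for Lamp5, -0.175 to 0.352 for Foxp2, -0.0210 to 0.0620 for Tle4 and -0.143 to 0.0814 for Tbr1. The striatal r ran from -0.197 to 0.425 for Cux1, -0.44 to 0.0945 for Cux2, -0.18 to 0.291 for Tle4 and -0.543 to 0.00487 for Tbr1. Libraries with the same number did not deviate together in every pair: the lowest correlation was -0.06 between genotypes in cortex, -0.004 in hippocampus, 0.08 between regions in wild type and -0.14 in Ncs1-/-. In wild type 5 of 5 cortex libraries were closest to their own number in the other region, with correlations of 0.08 to 0.37, and in Ncs1-/- 3 of 5 were. This is a hint from the data and not from the design. Between genotypes 0 of 5 were closest to their own number in cortex and 2 of 5 in hippocampus. The main fits did not pair libraries. With the replicate block 4 genes were called between genotypes in each region, 6250 between regions in Ncs1-/- and 6629 in wild type, and 0 in the interaction. Layer genes called with the block numbered 8 between regions in Ncs1-/- and 9 in wild type. Foxp2 in hippocampus rests on 33 to 164 counts per library, and its fold change is the least precise.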
